A study of Arabidopsis thaliana with 18 samples.

Results

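The WRKY genes of Arabidopsis thaliana encode plant transcription factors, and 48 of them were described here in seedlings of mutants in the BORDER (BDR) genes and in FPA, which encodes an RNA-binding protein. The members were the rows of the gene count table whose identifier stood on a list of 48 WRKY genes, out of 33602 rows. Of the 48, 36 reached a mean of at least 1 CPM (counts per 1e6 counted reads of the library, scaled between libraries) in at least 1 group, and 40 held enough reads to be tested, including all of those 36. Another 24 WRKY genes are not on the list and were kept apart as a comparison list.

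Messenger RNA of whole seedlings in the Col-0 background was sequenced in 18 libraries, 3 for each of 6 groups. The groups were the bdr1 bdr2 bdr3 triple mutant (bdrs), the fpa-7 mutant (fpa), the insertion lines bdr1, bdr2 and bdr3 alone, and wild type (WT). Each mutant group was 1 line, and all seedlings had 4 days of cold at 4 °C in the dark before 8 days at 21 °C under 16 h of light and 8 h of dark. BDR proteins resemble transcript elongation factors and FPA acts in 3′ end formation of transcripts. The study's methods name comparisons of the single mutants and bdrs with WT. Here fpa was also compared with WT and with bdrs. In whole seedlings, fewer cells of a type and less RNA per cell cannot be told apart. The study's methods call the 3 libraries of a group biological triplicates. The labels do not say whether they came from separate cultures, and the p-values below measure the spread between these libraries.

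Libraries held 11566600 to 21084793 counted reads. Ribosomal RNA took 1.65% of reads in bdrs 1, 1.78% in fpa 3 and 1.01% in bdr1 3, and 0.0532% to 0.66% in the other 15 libraries. Reads of BDR1 and BDR2 were lower in bdrs than in WT (log2 fold change -3.07 and -1.0), BDR1 was lower in bdr1 and BDR2 in bdr2, and FPA was lower in fpa (-0.77, edgeR adjusted p = 0.01). BDR3 did not pass the test in bdr3 or bdrs, where it was read at 6.42, 8.68 and 6.76 CPM in bdrs and 7.44, 8.47 and 8.27 CPM in WT. Shoot markers summed to 37240 to 81750 CPM and root markers to 2230 to 4070 CPM, so both organs were present in every library.

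WRKY proteins bind DNA through a conserved domain that holds the WRKY signature and a zinc finger, and most of them recognise the W-box, a short element around the core TTGAC. The family is divided by the number of domains and the type of finger into groups I, IIa to IIe and III. Many members are switched on by pathogens or by salicylic acid and act on immunity, in part by controlling their own genes and those of other members, while others act in senescence, phosphate supply, seeds or stems.

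The sequence that defines the family is shown for the members that the comparisons turn on, and for the pair that departs from it. Each line is the coding DNA of the WRKY signature in the TAIR10.1 genome, 5′ to 3′ on the gene's own strand, with the codon of its sixth residue in capitals, which is glutamine in 56 of the 58 signatures of the 48 members.
WRKY40: tggaggaaatatggaCAGaaa
WRKY60: tggaggaaatacgggCAAaag
WRKY70: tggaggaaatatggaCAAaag
WRKY48: tggagaaaatacggcCAAaaa
WRKY46: tggagaaaatatgggCAAaaa
WRKY50: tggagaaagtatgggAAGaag
WRKY51: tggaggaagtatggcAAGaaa
These lie at chr1:30384789-30384809 (+) for WRKY40, chr2:10630643-10630663 (+) for WRKY60, chr3:20909760-20909780 (-) for WRKY70, chr5:20091645-20091665 (+) for WRKY48 and chr2:19044313-19044333 (-) for WRKY46, each within 1 coding exon. In WRKY50 (chr5:9147579-9147599, -) and WRKY51 (chr5:25908864-25908884, +) the codon reads lysine. All 10 members of group I hold 2 signatures and the other 38 hold 1. All 9 members of group III, and no other member, hold the cysteine-rich finger of that group.

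Because WRKY factors can act on WRKY genes, the window from 250 bases before to 50 bases after each annotated start was searched for the core TTGAC and for the full W-box, TTGACC or TTGACT, on both strands. The full W-box contains the core, so the counts overlap. The core stood in 30 of the 48 members (62.5%), against 50.5% of 26711 protein-coding genes, and the full W-box in 18 members (37.5%), against 32.4%. At least 3 cores stood in 6 members (12.5%), against 4.87%. The sites below are those of the members that lead the comparisons, and of WRKY33 and WRKY53, which carry full W-boxes. Capitals mark the motif as it reads on the gene's strand, and the number is its position from the annotated start in TAIR10.1.
WRKY40, -160: ataagaatGTCAAccaactat
WRKY60, 1: cccaaatcGTCAAccttctca
WRKY60, 17: tctcataaTTGACaagttatt
WRKY70, -60: gagcttacGTCAAgctcacca
WRKY46, -48: tcctttatGTCAAtttctctc
WRKY33, -96: cgtttgagAGTCAAggccacaa
WRKY33, -32: ttttcaacGGTCAAacttttta
WRKY53, -219: gtcagcctTTGACCttatactc
WRKY53, -71: ggtcatttGGTCAAattttcaa
The printed stretches run, in the same order, over chr1:30383393-30383413 (+), chr2:10629654-10629674 (+), chr2:10629670-10629690 (+), chr3:20910671-20910691 (-), chr2:19044991-19045011 (-), chr2:16108131-16108152 (+), chr2:16108195-16108216 (+), chr4:12394188-12394209 (-) and chr4:12394040-12394061 (-). WRKY40, WRKY60, WRKY70 and WRKY46 held the core without the full W-box, and WRKY48, WRKY18 and WRKY31 held neither in this window. These matches are descriptions of letters, and binding was not measured.

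In WT seedlings the family was led by group IId, whose members also bind calmodulin. Per kilobase of exon, which allows genes to be compared, WRKY15 (AT2G23320), known from oxidative and osmotic stress, had the highest level at 31.4 ± 5.68 CPM per kb (SD, n = 3). WRKY65 followed at 15.8 ± 0.905 CPM per kb, then WRKY39 at 14.1 ± 1.50 and WRKY17 at 14.1 ± 0.425 (SD, n = 3 each). The 3 WT libraries of WRKY15 lay above every library of WRKY65, whereas the libraries of WRKY65, WRKY39 and WRKY17 overlapped or lay next to each other. WRKY21 and WRKY11, both at 11.3 CPM per kb, could not be separated. Of the members that reached 1 CPM in some group, the lowest were WRKY40 at 0.57 ± 0.298, WRKY70 at 0.563 ± 0.109 and WRKY46 at 0.403 ± 0.149 CPM per kb. WRKY53 at 0.581 ± 0.0803 and WRKY44 at 0.578 ± 0.145 CPM per kb stood next to WRKY40. The libraries of all these members overlapped, so their order is not settled. Not all members tied to defence were this low, with WRKY33 at 4.87 ± 0.789 CPM per kb (SD, n = 3).

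**Figure D1:**
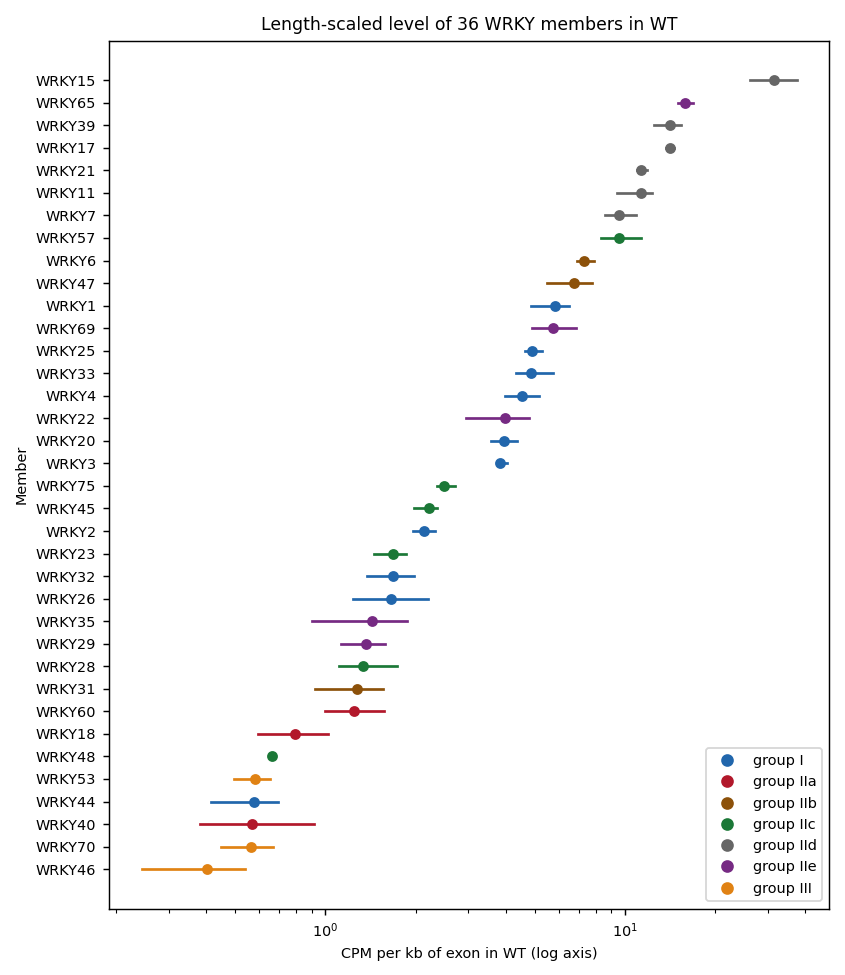
Level of the 36 members that reached 1 CPM in some group, in the 3 WT libraries, in CPM per kb of exon on a log axis; the point is the mean, the line runs from the lowest to the highest library, and the colour is the structural group. Members of group IId fill 6 of the first 7 places, from 31.4 CPM per kb for WRKY15, and WRKY46 is last at 0.403.

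Summed over the 48 members, the family took 404.7 ± 23.5 CPM in bdrs and 363.8 ± 9.92 CPM in fpa, against 353.8 ± 8.89 CPM in WT (SD, n = 3 each). The sum was 362.4 ± 9.91 CPM in bdr1, 358.5 ± 3.61 CPM in bdr2 and 343.4 ± 5.36 CPM in bdr3. All 3 bdrs libraries, at 391.9, 431.9 and 390.4 CPM, lay above the WT libraries at 357.5, 343.7 and 360.3 CPM.

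In bdrs against WT, 4 of the 40 tested members rose and 0 fell at an adjusted p under 0.05 (edgeR quasi-likelihood test, Benjamini-Hochberg adjustment over 20143 genes). That is 10% of the tested members, beside 4.67% of all tested genes in either direction, of which 1.89% rose and 2.78% fell. The 4 were WRKY40, WRKY60, WRKY70 and WRKY48. An unadjusted p under 0.05 was reached by 14 members. The log2 fold change was above 0 in 33 of 40 members, with a median of 0.36 and a range of -0.29 to 2.02, whereas the median over all tested genes was 0.01. Every bdrs library lay above every WT library in 7 members, beside 8.81% of all tested genes, and below in 1 member (WRKY2), beside 9.29%.

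Group IIa holds the 3 related factors WRKY18, WRKY40 and WRKY60, which act together in defence and in abscisic acid responses. WRKY40 (AT1G80840) was read at 1.53, 2.93 and 3.82 CPM in bdrs, against 1.21, 0.55 and 0.506 CPM in WT. The groups did not overlap, although the lowest bdrs library stood close to the highest WT library. The log2 fold change was 1.88 ± 0.38 (SE, edgeR adjusted p = 0.0046). WRKY60 (AT2G25000), which modulates the other two, had 4.82, 4.48 and 3.76 CPM in bdrs and 1.9, 2.48 and 1.57 CPM in WT. All bdrs libraries were well above the WT libraries, and bdrs 1 was the highest of all 18 libraries, unlike for the other members that rose. Its log2 fold change was 1.13 ± 0.212 (SE, edgeR adjusted p = 0.00244), the smallest p among the members. WRKY18 (AT4G31800) had 1.39, 3.92 and 5.35 CPM in bdrs, against 2.08, 1.21 and 1.52 CPM in WT. Here bdrs 1 fell within the WT range while bdrs 2 and bdrs 3 were above it, and the change of 1.17 ± 0.342 missed the threshold (edgeR adjusted p = 0.057). It was 1.53 (adjusted p = 0.00118) without bdrs 1 and 0.77 (adjusted p = 0.379) without bdrs 3.

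Group III holds WRKY70, which favours salicylic acid over jasmonate defence, together with its relatives WRKY54 and WRKY46 and the senescence factor WRKY53. WRKY70 (AT3G56400) was read at 1.24, 6.04 and 2.59 CPM in bdrs, against 0.981, 0.66 and 0.844 CPM in WT. The 3 bdrs libraries were above WT, but they spanned a wide range, with bdrs 2 far above bdrs 1. The log2 fold change was 2.02 ± 0.408 (SE, edgeR adjusted p = 0.00454), and without bdrs 2 it was 1.22 (adjusted p = 0.0677). WRKY46 (AT2G46400), which acts with WRKY54 and WRKY70 in growth under brassinosteroids and in drought, had 0.511, 3.21 and 1.65 CPM in bdrs and 0.577, 0.33 and 0.731 CPM in WT. Its bdrs 1 library lay within the WT range, and the log2 fold change of 1.76 ± 0.506 narrowly missed the threshold (edgeR adjusted p = 0.0531), with 2.16 (adjusted p = 0.00393) without bdrs 1 and 1.01 (adjusted p = 0.56) without bdrs 2. WRKY53 had 1.6, 1.6 and 0.647 CPM in bdrs and 0.75, 0.99 and 0.9 CPM in WT, so that bdrs 3 was the lowest of the 6 (0.54 ± 0.373, adjusted p = 0.562). Only 3 of the 9 members of this group were expressed enough to be tested.

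WRKY48 (AT5G49520) of group IIc represses basal resistance to bacteria. It had 1.75, 3.4 and 3.41 CPM in bdrs and 1.27, 1.27 and 1.29 CPM in WT, the tightest WT values of the 4 members that rose. The log2 fold change was 1.18 ± 0.296 (SE, edgeR adjusted p = 0.0236). This call was the least stable of the 4, since it was lost when any 1 of bdrs 2, bdrs 3 or the WT libraries was left out, with adjusted p-values of 0.0794 to 0.153 and log2 fold changes of 1.02 to 1.18. In the same group, WRKY45 (AT3G01970), which promotes phosphate uptake, had 4.23, 6.09 and 3.29 CPM in bdrs, against 3.11, 2.7 and 3.21 CPM in WT. The groups did not overlap, by a narrow margin, and the change of 0.60 ± 0.255 did not pass the test (edgeR adjusted p = 0.256). WRKY28, which acts on salicylic acid synthesis, had 3.28, 3.96 and 1.76 CPM in bdrs and 1.61, 1.71 and 2.53 CPM in WT (0.63 ± 0.286, adjusted p = 0.305).

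**Figure D2:**
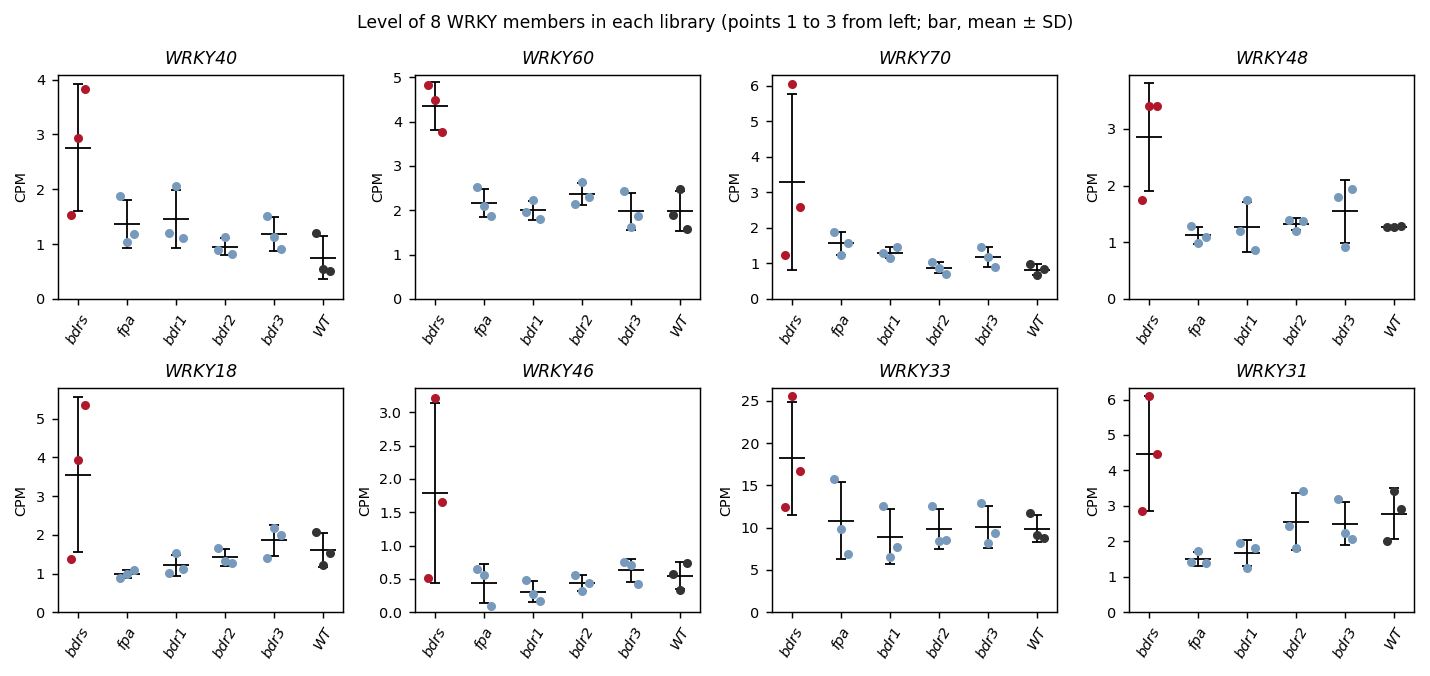
CPM of 8 members in each of the 18 libraries; points are libraries 1 to 3 of a group from left to right, and the bar is the mean with its SD (n = 3). WRKY40, WRKY60, WRKY70 and WRKY48 have all bdrs points above the WT points, whereas WRKY18 and WRKY46 have bdrs 1 at the WT level (1.39 and 0.511 CPM) and bdrs 2 and bdrs 3 above it.

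Group I, with a pair of WRKY domains in each protein, had 0 members called among 10. WRKY33 (AT2G38470), which controls synthesis of the phytoalexin camalexin and resistance to necrotrophic fungi, was read at 12.4, 25.5 and 16.6 CPM in bdrs, against 11.7, 9.13 and 8.78 CPM in WT. The groups did not overlap, with bdrs 1 just above WT 1. The log2 fold change of 0.89 ± 0.302 did not pass the test (edgeR adjusted p = 0.119), and it was 1.10 (adjusted p = 0.0398) without bdrs 1 and 0.55 (adjusted p = 0.635) without bdrs 2. WRKY26 (AT5G07100), which acts with WRKY25 and WRKY33 in heat tolerance, had 2.7, 5.71 and 4 CPM in bdrs and 1.96, 3.47 and 2.36 CPM in WT. The ranges overlapped (0.69 ± 0.255, adjusted p = 0.171). WRKY20 and WRKY1 had log2 fold changes of 0.29 ± 0.154 and 0.29 ± 0.192, which did not pass the test.

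Group IId, which led the family in WT, had the median change closest to 0. In this group, which holds WRKY11 and WRKY17, known to restrain basal resistance, the log2 fold changes ran from -0.29 to 0.30 with a median of -0.03, and 0 of 6 members were called. WRKY15 had 51.1, 53.8 and 43.8 CPM in bdrs and 39.5, 33.5 and 48 CPM in WT (0.30 ± 0.204, adjusted p = 0.561). WRKY39, known from heat tolerance, had 35.1, 20.5 and 22.5 CPM in bdrs and 32.5, 27.9 and 34.5 CPM in WT (-0.29 ± 0.181, adjusted p = 0.519). Here bdrs 1 stood above and the other bdrs libraries below the WT range, and without bdrs 1 the change was -0.56 (adjusted p = 0.0481), the 1 call in 12 alternatives, which ran up to -0.15 (adjusted p = 0.928) without bdrs 2. WRKY17 had 23.1, 24.1 and 22.2 CPM in bdrs, against 21.1, 21.5 and 22.4 CPM in WT, and WRKY21 had 30, 20.6 and 17.6 CPM in bdrs, against 23.7, 23.1 and 24.9 CPM in WT. Both pairs of ranges overlapped.

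Groups IIb and IIe also had 0 members called. WRKY31 (AT4G22070) of group IIb had 2.85, 6.09 and 4.47 CPM in bdrs and 2.02, 3.41 and 2.92 CPM in WT, with bdrs 1 inside the WT range (0.70 ± 0.283, adjusted p = 0.229). WRKY29 (AT4G23550) of group IIe, known from flagellin signalling, had 2.77, 2.83 and 3.06 CPM in bdrs, against 1.96, 2.2 and 1.57 CPM in WT. Its groups did not overlap and its bdrs libraries lay close together, but the change of 0.59 ± 0.209 did not pass the test (edgeR adjusted p = 0.139). WRKY65 had 28, 26.5 and 21.8 CPM in bdrs and 24.3, 23.4 and 26.2 CPM in WT (0.05 ± 0.155, adjusted p = 0.933). By structural group, the median log2 fold change was 1.76 in III (3 tested), 1.17 in IIa (3), 0.60 in IIc (9), 0.52 in IIb (4), 0.29 in I (10), 0.28 in IIe (5) and -0.03 in IId (6).

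**Figure D3:**
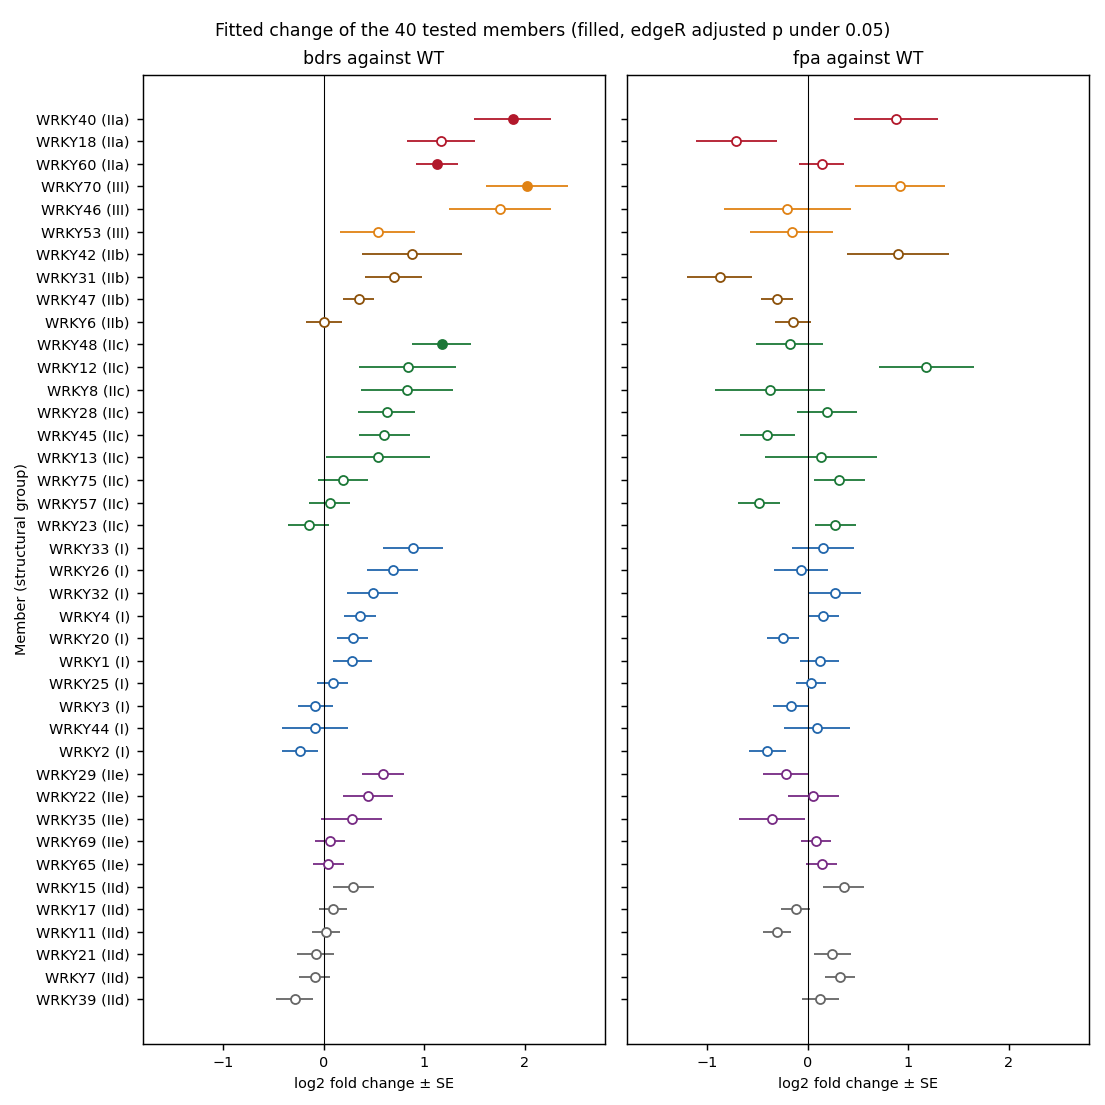
Fitted log2 fold change with its SE for the 40 tested members, bdrs against WT on the left and fpa against WT on the right, sorted within structural groups; filled points passed the test (edgeR adjusted p under 0.05). On the left 4 points are filled, from 1.13 for WRKY60 to 2.02 for WRKY70, and on the right 0 are filled.

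The bdrs libraries did not contribute alike. Over the 36 members, the median log2 ratio to the WT mean was 0.12 in bdrs 1, 0.36 in bdrs 2 and 0.21 in bdrs 3, while the median over all tested genes was -0.002, -0.002 and -0.009. The choice of these members leans towards bdrs, since all 36 reached 1 CPM in bdrs but only 32 in WT. WRKY46 and WRKY53 reached it in bdrs alone, with group means of 1.79 and 1.29 CPM. Above the WT range lay 18 (50%), 26 (72.2%) and 21 (58.3%) of the 36, beside 27.3%, 31.2% and 30.8% of all tested genes. In the other 12 mutant libraries the count was 6 to 14 of 36, beside 21% to 34.1% of all tested genes. Of the 40 tested members, 11 (27.5%) had their highest value of all 18 libraries in bdrs 2, beside 10.2% of all tested genes, and 10 (25%) in bdrs 3, beside 7.27%. The count of members called in bdrs against WT was 9 without bdrs 1 (8 higher and 1 lower) and 2 without bdrs 2, where WRKY40 and WRKY60 remained. The calls over all tested genes, 940 with every library, were 1417 without bdrs 1 and 525 without bdrs 2. Root markers summed to 3241, 2323 and 2230 CPM and shoot markers to 40990, 46670 and 61820 CPM in bdrs 1, 2 and 3, against 3723, 3023 and 2649 CPM and 50990, 52150 and 63870 CPM in WT 1, 2 and 3. PYK10 made up most of the root sum, at 3108, 2178 and 2093 CPM in bdrs 1, 2 and 3. Gene by gene, the 9 root markers had a median log2 fold change of 0.096 in bdrs against WT (-0.289 to 0.575). The 7 shoot markers had a median of -0.105 (-0.28 to 0.044). None of the 16 markers was called in bdrs, and the part of organ balance in the WRKY values was not tested. Without bdrs 1, fpa 3 and bdr1 3, the libraries richest in ribosomal RNA, 8 members rose and 0 fell, and 1405 of all tested genes were called.

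**Figure D4:**
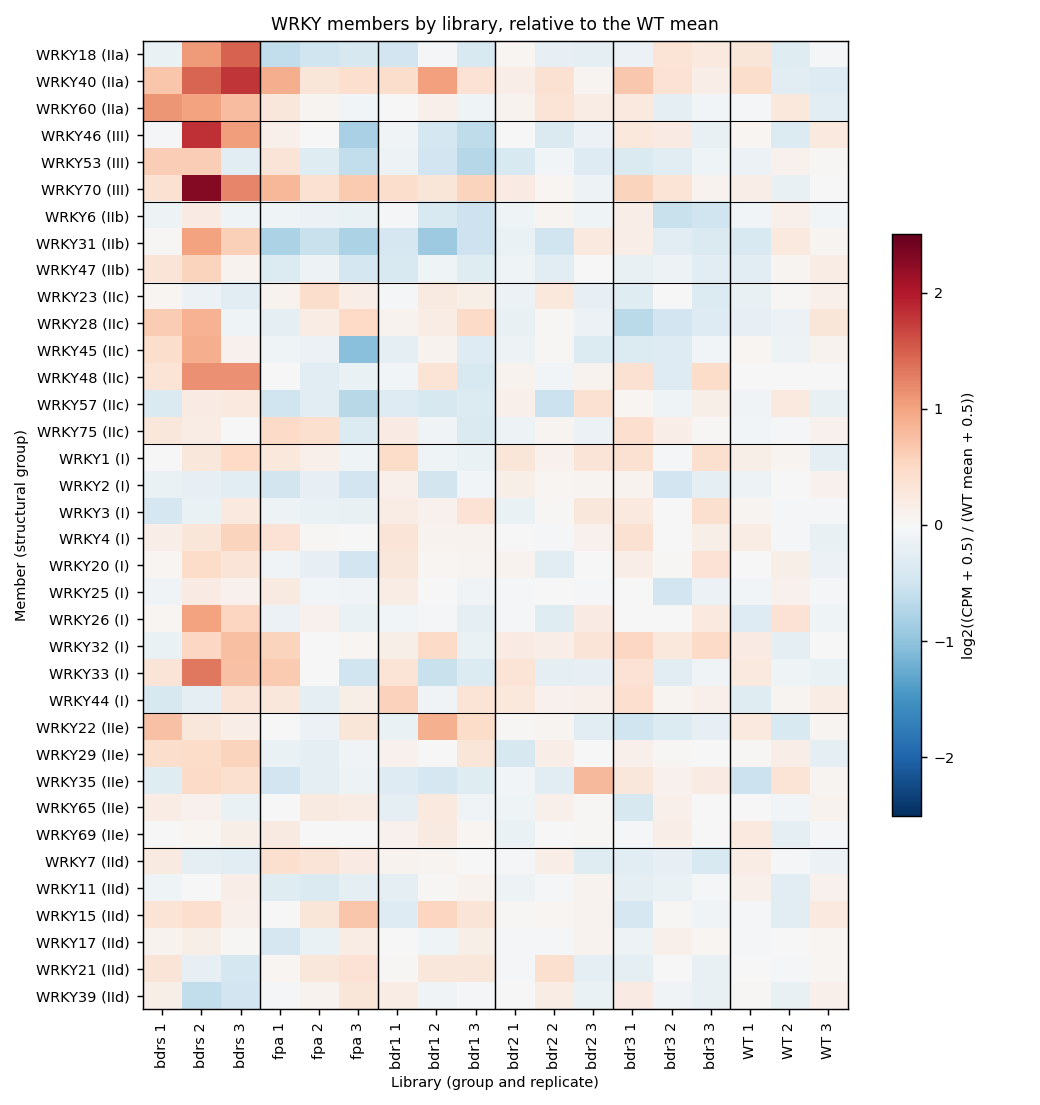
Difference of each library from the WT mean, as log2 of CPM plus 0.5, for the 36 members that reached 1 CPM in some group (rows, by structural group) in the 18 libraries (columns); red is above and blue below the WT mean. The red cells of groups IIa and III lie mostly in bdrs 2 and bdrs 3, and the rows of group IId are paler. In bdrs 1, WRKY60 is the reddest of these groups, and WRKY40 and WRKY53 are red as well. WRKY53 lies below the WT mean in bdrs 3.

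In fpa against WT, 0 of the 40 tested members were called (edgeR adjusted p under 0.05), beside 4.43% of all tested genes, 1.31% higher and 3.12% lower. An unadjusted p under 0.05 was reached by 6 members, and DESeq2 also called 0, with 3 at an unadjusted p under 0.05. The log2 fold changes had a median of 0.07 and ran from -0.88 to 1.18. All fpa libraries were above WT in 3 members (12.7% of all tested genes) and below WT in 6 members (14.7%). WRKY31 had the smallest p, with 1.4, 1.72 and 1.39 CPM in fpa against 2.02, 3.41 and 2.92 CPM in WT. Its groups did not overlap, and the change of -0.88 ± 0.32 did not pass the test (edgeR adjusted p = 0.129). WRKY40 had 1.87, 1.05 and 1.19 CPM in fpa (0.88 ± 0.415, adjusted p = 0.235), with fpa 2 and fpa 3 inside the range of WT. WRKY70 had 1.87, 1.23 and 1.58 CPM in fpa, all above the WT libraries (0.91 ± 0.447, adjusted p = 0.25).

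In the single mutants the count of members called was 0 in each comparison with WT by edgeR and by DESeq2. The share of all tested genes called was 0.0248% in bdr1 (0.00496% higher and 0.0199% lower), 0.0397% in bdr2 (0.00496% higher and 0.0348% lower) and 0.0199% in bdr3 (0% higher and 0.0199% lower), so that these comparisons held few calls anywhere. The libraries of bdr1 lay all above WT in 2 members and all below in 2, beside 3.56% and 5.24% of all tested genes. In bdr2 this was 0 and 0 members, beside 2.2% and 1.91%, and in bdr3 it was 1 and 2 members, beside 4.34% and 4.81%. At an unadjusted p under 0.05 there were 2 members in bdr1, 0 in bdr2 and 0 in bdr3 by edgeR. The pair in bdr1 was WRKY40, at 1.2, 2.07 and 1.12 CPM in bdr1 (0.97 ± 0.405, adjusted p = 0.777), and WRKY31, at 1.96, 1.25 and 1.8 CPM in bdr1 (-0.74 ± 0.31, adjusted p = 0.777). WRKY40 overlapped with WT, and WRKY31 lay below all WT libraries by a narrow margin. The smallest p in bdr2 was that of WRKY1, at 15, 13.2 and 15.3 CPM in bdr2 against 13.5, 12.8 and 10.12 CPM in WT (0.26 ± 0.192, adjusted p = 1). In bdr3 it was that of WRKY28, at 1.05, 1.26 and 1.45 CPM in bdr3, below all WT libraries (-0.64 ± 0.316, adjusted p = 1).

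Whether bdrs exceeded the single mutants combined was tested as the log2 effect in bdrs minus the sum of the log2 effects in bdr1, bdr2 and bdr3. The count of members called was 0 by edgeR and by DESeq2, beside 0.477% of all tested genes (0.204% higher and 0.273% lower), with 6 members at an unadjusted p under 0.05 by edgeR. All 6 were positive, and WRKY47 (AT4G01720) had the smallest p (0.96 ± 0.315, adjusted p = 0.386). WRKY60, which stood at 0.02 in bdr1, 0.25 in bdr2 and 0.00 in bdr3, exceeded the sum by 0.86 ± 0.443 (adjusted p = 0.925). For WRKY40, whose estimates were above 0 in all 3 single mutants, the difference was -0.07 ± 0.775 (adjusted p = 0.996). The SE of this contrast was 0.443 for WRKY60, 0.775 for WRKY40 and 0.91 for WRKY70. Differences well beyond the SE also went uncalled, as for WRKY47 above and for WRKY31 (1.71 ± 0.591, edgeR adjusted p = 0.462). The count of 0 therefore does not exclude sizeable differences.

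In bdrs against fpa, 11 of the 40 tested members were higher in bdrs and 0 were lower (edgeR adjusted p under 0.05). That is 27.5%, beside 19.9% of all tested genes in either direction, 10.8% higher and 9.02% lower. An unadjusted p under 0.05 was reached by 18 members, and the median log2 difference was 0.36, with 0.01 over all tested genes. All bdrs libraries lay above all fpa libraries in 10 members, beside 18.1% of all tested genes, and below in 1 member (WRKY23), beside 16.1%. This comparison and the comparison of bdrs with WT share the bdrs libraries.

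WRKY18 had 1.39, 3.92 and 5.35 CPM in bdrs, against 0.877, 0.985 and 1.09 CPM in fpa. All bdrs libraries were above the fpa libraries, which lay close together. The log2 difference was 1.88 ± 0.377 (SE, edgeR adjusted p = 0.0027). WRKY31 had 2.85, 6.09 and 4.47 CPM in bdrs and 1.4, 1.72 and 1.39 CPM in fpa, without overlap (1.58 ± 0.311, adjusted p = 0.0024). WRKY48 had 1.75, 3.4 and 3.41 CPM in bdrs and 1.29, 0.985 and 1.09 CPM in fpa (1.36 ± 0.311, adjusted p = 0.00674). WRKY60 had 4.82, 4.48 and 3.76 CPM in bdrs and 2.52, 2.09 and 1.88 CPM in fpa (0.99 ± 0.215, adjusted p = 0.00478). Neither of these overlapped, and WRKY18, WRKY31, WRKY48 and WRKY60 were called under all 12 alternative settings.

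The other 7 were WRKY46, WRKY70, WRKY45, WRKY29, WRKY26, WRKY47 and WRKY20. WRKY46 had 0.643, 0.554 and 0.099 CPM in fpa, so that bdrs 1 at 0.511 CPM lay within the fpa range (1.96 ± 0.538, adjusted p = 0.0175). WRKY70 overlapped as well and stood at the threshold (1.11 ± 0.387, adjusted p = 0.0494). WRKY45 had 2.75, 2.65 and 1.19 CPM in fpa, all below bdrs (1.01 ± 0.268, adjusted p = 0.015). WRKY29 had 1.64, 1.54 and 1.78 CPM in fpa, and its bdrs libraries were all higher (0.81 ± 0.218, adjusted p = 0.0159). WRKY45 and WRKY29 thus separated the mutants in every library, unlike WRKY46 and WRKY70. WRKY47 had 16.7, 19.6 and 14.2 CPM in bdrs and 10.3, 12 and 9.61 CPM in fpa, without overlap (0.66 ± 0.16, adjusted p = 0.00953). WRKY20 (AT4G26640) had 17.2, 23.1 and 20.9 CPM in bdrs and 15.8, 14.5 and 11.9 CPM in fpa, also without overlap (0.53 ± 0.156, adjusted p = 0.0236). WRKY26 overlapped narrowly, with 2.83 CPM in fpa 2 and 2.7 CPM in bdrs 1 (0.76 ± 0.263, adjusted p = 0.048). These 7 calls depended on single libraries. All of them were lost without bdrs 2, where 4 members were called, and the count was 7 without bdrs 3, 6 without fpa 3 and 19 (16 higher and 3 lower) without bdrs 1. Over all tested genes, where 3999 were called with every library, the calls were 1224 without bdrs 2, 1748 without bdrs 3, 2297 without fpa 3 and 5610 without bdrs 1.

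The 12 members under 1 CPM in every group were WRKY8, WRKY12, WRKY13, WRKY42, WRKY30, WRKY38, WRKY41, WRKY50, WRKY51, WRKY54, WRKY55 and WRKY62. The first 4 were tested and none was called. Each of the 48 members had at least 1 read in some library. WRKY12 and WRKY13, known from stem development, and WRKY8, known from salt tolerance, had at most 0.866 CPM as a group mean.

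BDR proteins were studied at the borders between neighbouring genes, so the position of each member was taken from the TAIR10.1 annotation. The nearest upstream gene was on the same strand for 28 members and on the opposite strand for 20, at a median distance of 2970 bases and a range of 6 to 7838. The median log2 fold change in bdrs against WT was 0.29 for the 24 tested members with a neighbour on the same strand and 0.52 for the 16 with one on the opposite strand. A neighbour on the same strand within 500 bases stood before 3 members. WRKY25 starts 6 bases from U2B'' and had 8.17, 10 and 9.41 CPM in bdrs, against 8.25, 9.35 and 8.38 CPM in WT (0.09 ± 0.151, adjusted p = 0.854). WRKY45 lies 42 bases and WRKY26 lies 55 bases from the upstream gene, and their changes in bdrs, 0.60 and 0.69, did not pass the test. The upstream neighbours stood at 18.8 ± 1.85, 21.0 ± 0.589 and 267.5 ± 26.1 CPM in bdrs before WRKY25, WRKY45 and WRKY26, against 17.2 ± 2.71, 20.01 ± 1.45 and 247.3 ± 31.5 CPM in WT (SD, n = 3 each). None of these 3 neighbours was called. An annotated gene on the opposite strand overlapped 9 members, WRKY40, WRKY33, WRKY29 and WRKY53 among them, and since no source used here gives the strand setting of the counting, reads of such partners cannot be told apart.

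Genes around the WRKY factors were read from lists ordered by role. In bdrs against WT, the median log2 fold change was 0.18 for immune receptors, -0.01 for MAP kinase cascades, 0.49 for VQ proteins, 0.33 for target genes and 0.38 for the other WRKY genes, with 0.01 over all tested genes. Of 6 immune receptors and early signalling genes, 0 were called in bdrs against WT, and the flagellin receptor FLS2 had 2.04, 5.76 and 6 CPM in bdrs, against 1.61, 1.6 and 3.21 CPM in WT (1.12 ± 0.34, edgeR adjusted p = 0.0691). Of the MAP kinase cascade genes, which pass the signal on to WRKY factors such as WRKY33, 0 of 9 tested were called, and of VQ proteins, which bind WRKY factors, 0 of 8. Of 18 genes known as targets of WRKY factors, 14 were tested. Of these, 3 rose and 1 fell, beside 1.89% and 2.78% of all tested genes. FRK1, a receptor kinase gene used as a reporter of flagellin responses, had 1.68, 4.34 and 0.999 CPM in bdrs, against 0.115, 0.22 and 0.45 CPM in WT (3.16 ± 0.639, adjusted p = 0.00464). CYP71A13, an enzyme of camalexin synthesis, had 0.584, 1.94 and 0.882 CPM in bdrs, against 0, 0.055 and 0.169 CPM in WT (3.85 ± 0.823, adjusted p = 0.00908). SAG13, a senescence-associated gene, had 2.26, 24.0 and 3.41 CPM in bdrs, against 0.346, 0.55 and 1.46 CPM in WT (3.66 ± 0.721, adjusted p = 0.00364). None of these 3 overlapped with WT, and bdrs 2 was the highest library in each. ABI3, a regulator of seed maturation and a target of WRKY41, fell, with 2.48, 1.75 and 1.71 CPM in bdrs against 4.96, 6.22 and 9 CPM in WT (-1.78 ± 0.272, adjusted p = 0.000313).

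In fpa against WT, 0 of the 14 tested target genes rose and 3 fell, beside 1.31% and 3.12% of all tested genes. The 3 were ABI3 (-2.69), ABI5 (-1.82) and ABI4 (-2.05), regulators of abscisic acid responses in seeds and seedlings. In bdr1 these 3 also lay below every WT library but did not pass the test. There ABI3 stood at -0.88, ABI5 at -0.97 and ABI4 at -1.91 (edgeR adjusted p = 0.631, 0.497 and 0.523). In bdr2 and bdr3 they overlapped with WT. The VQ protein gene VQ4 fell as well, with 22.3, 22.8 and 27.8 CPM in fpa against 36.6, 38.1 and 34.9 CPM in WT (-0.59 ± 0.154, edgeR adjusted p = 0.0328). Among the 24 other WRKY genes, 11 were tested. WRKY72 rose in bdrs, at 4.09, 7.32 and 6 CPM against 2.13, 2.2 and 3.77 CPM in WT, without overlap (1.11 ± 0.266, edgeR adjusted p = 0.0165), and 0 changed in fpa against WT. In bdrs against fpa, 5 of these 11 were higher in bdrs (WRKY14, WRKY27, WRKY36, WRKY52 and WRKY72) and 0 were lower. Of all tested genes, 10.8% were higher and 9.02% lower.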

How the data were processed

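Total RNA of whole seedlings was made into stranded mRNA libraries and sequenced paired-end. Per the labels and the study's methods, the authors aligned reads to TAIR10 with STAR 2.5.2b, kept uniquely aligned reads with SAMtools 1.3.1 and deposited whole read counts per gene from featureCounts. The deposited normalized table, in the same genes and libraries, was not used. Reads shared by near-identical genes are lost in such counts.

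Counts were scaled by TMM, filtered with filterByExpr (20143 of 25596 genes with reads) and fitted in 1 edgeR 4.0.16 quasi-likelihood model of 6 groups with 12 residual degrees of freedom (R 4.3.3, limma 3.58.1). P-values were adjusted by Benjamini-Hochberg over all tested genes, and SE is the log2 fold change over the root of F. The biological coefficient of variation was 17.3%. Replicates differed by more than counting noise (chi-square per degree of freedom at least 13.2). The fit was tested on simulated counts, which held no deviation shared by the genes of a library. That test therefore cannot speak to outlying libraries or to replicate numbers. The alternatives were DESeq2 1.42.0, its size factors, no filter, a replicate block, leaving out libraries and fitting only the groups compared.

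Same-numbered libraries deviated together in fpa and WT, with correlations of 0.112 to 0.426 in the 3 pairs, while differently numbered libraries reached up to 0.215. In bdrs and WT the same-numbered pairs ran from 0.019 to 0.228, while differently numbered libraries reached up to 0.033. In each of the other comparisons at least 1 same-numbered pair lay under 0.1. Over all 15 pairs of groups, same-numbered libraries ran from -0.347 to 0.655, and differently numbered ones reached up to 0.452. Shared deviations by replicate number were thus not confined to fpa and WT. The main fit used no pairs, and only the alternative with a replicate block took the numbers into account.

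Exon lengths, positions and sequences came from the TAIR10.1 genome and RefSeq annotation, while the counting used TAIR10. Gene symbols came from the same annotation. Members were named in the text when called in any comparison, among the 5 highest in WT, in group IIa, or of smallest p in a comparison or in a structural group for bdrs against WT. Other names were chosen after their values were seen (WRKY2, WRKY11, WRKY23, WRKY25, WRKY44, WRKY50, WRKY51 and WRKY53, the reads of members under 1 CPM, FLS2, PR1, PDF1.2A and SAG12). The members and the lists were chosen with earlier results of these data known.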

Additional observations from a re-analysis of the deposited data

Results flagged for a closer look

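The effect of bdrs and the effect of fpa, each against WT, differed by the test of the difference itself in 11 members (edgeR adjusted p under 0.05, all higher in bdrs). The difference of the log2 effects, bdrs minus fpa, was 1.96 for WRKY46, 1.88 for WRKY18, 1.58 for WRKY31, 1.36 for WRKY48, 1.11 for WRKY70, 1.01 for WRKY45, 0.99 for WRKY60, 0.81 for WRKY29, 0.76 for WRKY26, 0.66 for WRKY47 and 0.53 for WRKY20. The WT libraries cancel out of this difference, so it is the direct comparison of bdrs with fpa. For WRKY31 and WRKY18 the estimates against WT had opposite signs, 0.70 and 1.17 in bdrs and -0.88 and -0.71 in fpa, and none of these 4 passed the test alone. Groups of 3 libraries are too small for a test of single outlying libraries, so none was run.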

How the results depend on the processing

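In bdrs against WT, 4 members were called, with the same 4 under DESeq2, under its size factors and with only the 2 groups fitted, and 6 without the filter on low counts. The count was 8 with the 3 libraries of most ribosomal RNA left out, and 2 to 9 when 1 library was left out. Over all tested genes the calls were 940, with 1405 without those 3 libraries and 525 to 1417 with 1 left out. WRKY40 and WRKY60 were called under all 12 alternatives, WRKY70 under 11 and WRKY48 under 7. WRKY18, WRKY33 and WRKY46, not called here, were each called under 3 of 12, and WRKY39 under 1. In bdrs against fpa, 11 were called, 9 under DESeq2 and 9 under its size factors, 11 without the filter, 13 without the rRNA-rich libraries, 6 with only the groups compared, and 4 to 19 with 1 library left out, beside 3999 over all tested genes, with 1224 to 5610 when 1 was left out. WRKY70 and WRKY26 were called under 3 of the 12. The cause of these moves was not tested. In fpa, bdr1, bdr2 and bdr3 against WT, and for bdrs against the sum of single effects, the count was 0 under each alternative run. Over the 20 members named by the rule in the 7 comparisons, 140 pairs in all, the sign turned under some alternative in 45, none of them among the 15 called. Among the values given in the text, WRKY65 in bdrs against WT was -0.03 without the rRNA-rich libraries and -0.028 to 0.146 with 1 library left out, and WRKY21 was -0.322 to 0.078. WRKY60 was -0.125 to 0.207 in bdr1, and in bdr3 0.011 without the filter, 0.008 with the block and -0.19 to 0.191 with 1 left out. WRKY40 against the sum of single effects was 0.073 without the rRNA-rich libraries and -1.077 to 0.366. With the replicate number as a block, the counts were 5 in bdrs against WT, adding WRKY33, and 14 in bdrs against fpa (13 higher and 1 lower). The block left fpa against WT, the single mutants and the sum at 0. Counts of about 20 reads or fewer per library, as for WRKY40, WRKY46 and WRKY70 in WT, limit the precision of these folds.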

Other observations

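Several members that stayed under 1 CPM had their highest count of reads in bdrs 2. That library held 20036450 counted reads, against 13274551 in bdrs 1, 17042635 in bdrs 3 and 17062008 to 17713047 in WT. Scaled to CPM, WRKY62, WRKY38, WRKY30 and WRKY54 still had their highest value in bdrs 2, and WRKY51 had it in bdrs 3. WRKY62, a negative regulator of basal defence in group III, had 1, 21 and 0 reads in bdrs 1, 2 and 3 and 0 reads in each WT library, with 1 read in fpa 2 and 0 in the other libraries. Its relative WRKY38, which acts with it, had 1, 17 and 4 reads in bdrs and 1, 1 and 0 reads in WT. WRKY30, known from oxidative stress, had 5, 19 and 9 reads in bdrs and 4, 4 and 6 reads in WT, and WRKY54 had 2, 11 and 5 reads in bdrs and 2, 3 and 3 reads in WT. WRKY51, whose signature carries lysine, differed from these in that all its bdrs libraries, at 7, 16 and 13 reads, lay above WT at 4, 5 and 3 reads. These members were below the filter on low counts. Without the filter, 0 of these 5 were called in bdrs against WT, and WRKY38 was called in bdrs against fpa (log2 difference 2.94, edgeR adjusted p = 0.0484). WRKY51 passed the filter when some libraries were left out, and in bdrs against fpa it was called without bdrs 1 (2.19, adjusted p = 0.0387) and without fpa 2 (3.95, adjusted p = 0.0225), and not without fpa 1 (1.36, adjusted p = 0.169) or fpa 3 (1.88, adjusted p = 0.121).

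PR1, the usual marker of salicylic acid responses, had 0, 1.08 and 0.0588 CPM in bdrs and 0.0577, 0.055 and 0.113 CPM in WT, with its highest value of the 18 libraries in bdrs 2. It also had 0.55 CPM in bdr2 1. PDF1.2A, another of the target genes, was likewise highest in bdrs 2, with 0, 1.42 and 0 CPM in bdrs and 0.0577, 0 and 0.169 CPM in WT. Both genes were below the filter on low counts. SAG12, a late senescence marker, had 0 reads in all 18 libraries.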
